A study of Mus musculus with 30 samples.

Results

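Rab GTPases are small membrane switches that give each compartment of the secretory and endocytic routes its identity. Transcripts of the family were followed here in mouse spleen B cells across 10 groups of 3 arrays. Members were the genes whose probe sets carry 1 symbol made of Rab, a number and at most a letter and a digit. There were 59 such genes. Each was represented by its probe set of highest mean on the log2(intensity + 16) scale, and 50 of the 59 had at least 3 of the 30 arrays above the median of the whole table, so that they stand among the 12183 genes tested. The others were Rab3c, Rab25, Rab33a, Rab34, Rab39b, Rab40b, Rab42 and Rab44, with 0 arrays above that median, and Rab4a, with 1. Closest inside the limit were Rab9b, with 8 arrays, and Rab27b and Rab37, with 9 each.

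The cells were mature resting B cells enriched from spleens of C57BL/6 B1-8i mice, a strain with a knocked-in immunoglobulin heavy chain gene. Wild-type (WT) cells were Irf4+/+. The others, called KO here at every dose, came from Irf4-/- mice that carry an inducible Irf4, which doxycycline (DOX) switches on; the sources used here do not name its promoter. WT cells were taken on days 0, 1 and 3. KO cells were taken on day 0, and after 1 or 3 days of culture at 3 DOX concentrations: none (zero DOX), 16 ng/mL (low DOX) and 100 ng/mL (high DOX). The day 0 groups had no stimulation. Every later group, WT included, had received CD40L together with the cytokines IL-2, IL-4 and IL-5. Irf4 is the transcription factor whose level steers activated B cells toward plasma cells. Each replicate was B cells of an individual mouse, and the labels do not say whether KO cultures of different doses and days shared a mouse.

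A Rab protein is active when bound to GTP and inactive when bound to GDP. Guanine nucleotide exchange factors (GEFs) load GTP, GTPase-activating proteins (GAPs) promote its hydrolysis, and effectors bind the active form to tether, move or dock vesicles. Rab proteins reach membranes through lipid tails that Rab geranylgeranyl transferase attaches with the help of the escort proteins Chm and Chml. In B cells this traffic carries the antigen receptor into endosomes and back, and in plasma cells it carries antibody from the endoplasmic reticulum (ER) through the Golgi.

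A gene was called changed when its adjusted p was under 0.05 (limma, Benjamini-Hochberg over the 12183 genes), and differences are log2 values of the first group minus the other. Array medians ran from 171 to 200 intensity units and were lowest in the 3 WT day 1 arrays (171.38 to 174.15). Of the 2 Irf4 probe sets, the one that followed DOX read 13.58 ± 0.07 (SD, n = 3) at high DOX, 13.01 ± 0.08 at low DOX and 7.50 ± 0.17 at zero DOX on day 3, on the log2(intensity + 16) scale. It read 7.32 ± 0.08 in WT at day 3, so that it does not follow the WT gene. The other set read 12.65 ± 0.20 in KO and 13.17 ± 0.04 in WT at day 0, and 11.10 ± 0.29 in zero DOX and 10.82 ± 0.05 in WT at day 3. Neither set shows a loss of Irf4 in KO cells, and the genotype is taken from the labels. On day 1 the array labelled zero DOX replicate 2 read 10.77 against 7.84 and 7.80 in its group, while its counterpart labelled low DOX, also replicate 2, read 7.69 against 11.17 and 10.89. Both go against their labels. All 9 WT arrays were of female mice by sex-linked transcripts, while each KO group had 2 male mice and 1 female. Of 9 tested B cell markers 0 were lower in zero DOX cells than in WT at day 3, whereas 10 of 11 plasma cell markers were lower in zero DOX and 10 of 11 rose with high DOX. Myeloid markers were called higher in zero DOX cells than in WT at day 3 for 10 of 17 genes, with a summed intensity of 10040 to 18910 against 2993 to 3290. NK cell markers were higher for 6 of 6 (7341 to 14430 against 1988 to 2987) and T cell markers for 3 of 6. Over all genes 19% were called higher in zero DOX cells than in WT at day 3.

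The family was broadly expressed and most members moved little over the 10 groups. The span between a member's lowest and highest group mean had a median of 0.675 on the log2 scale. It was at least 1 for 9 members and under 0.5 for 14. Rab30 had the widest span, 3.45, followed by Rab35 with 2.38 and Rab19 with 1.97. Rab1b, an ER to Golgi Rab, was called in 0 of the 12 comparisons. Of the 50 members, 25 had other tested probe sets, and for 10 of these genes another set was called in the opposite direction in at least 1 comparison.

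**Figure D1:**
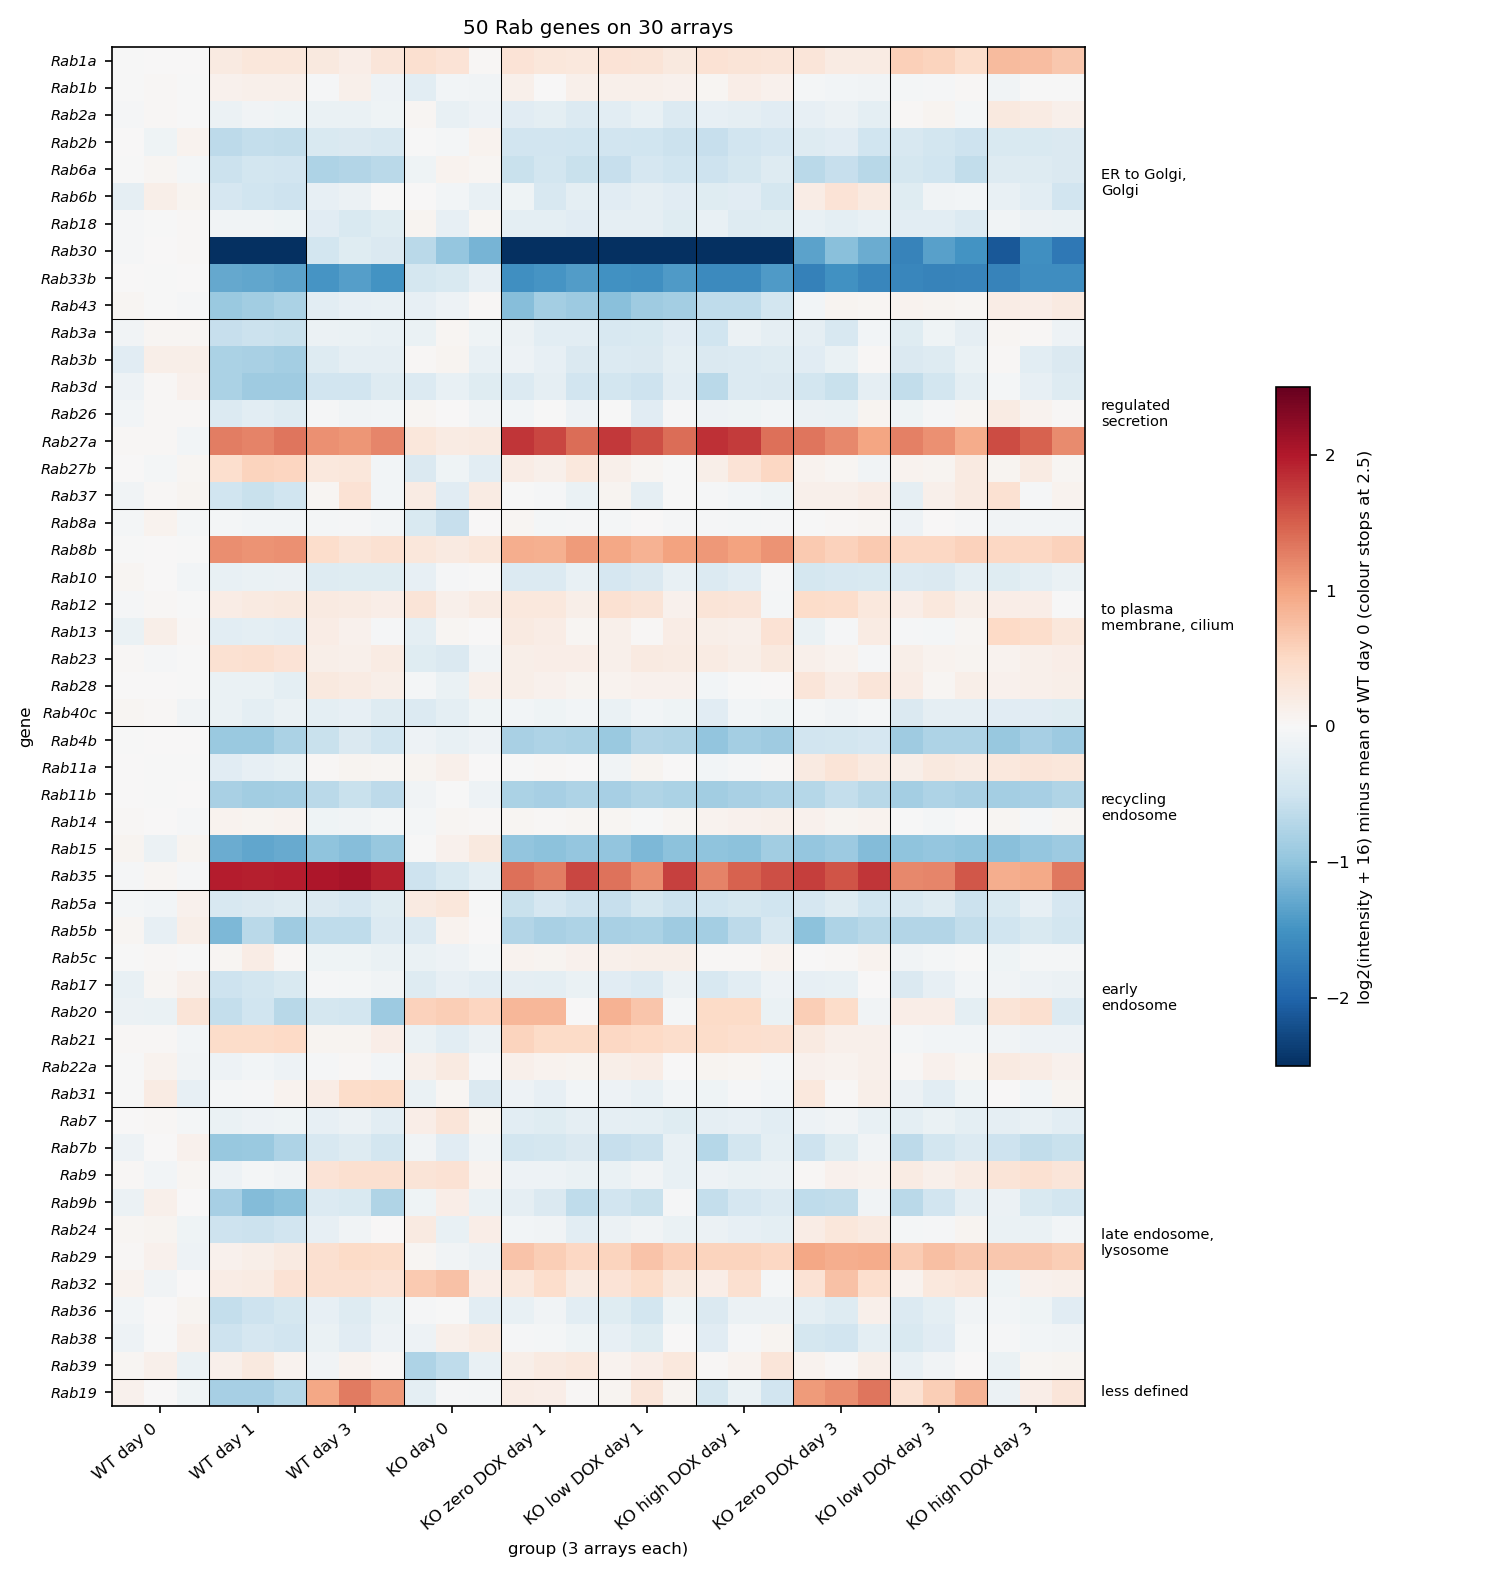
Heat map of the 50 Rab genes (rows, grouped by role) on the 30 arrays (columns, 3 per group), as log2(intensity + 16) minus the mean of the WT day 0 arrays, with colour stopping at 2.5. Rab35 and Rab27a are red and Rab33b and Rab15 are blue in every stimulated group, and Rab30 is darkest in the day 1 groups.

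Stimulation of WT cells lowered more Rab transcripts than it raised. At day 1, 40 of 50 members were called, 10 higher and 30 lower, where 81.5% of all genes tested were called (33.9% higher and 47.6% lower). The median difference was -0.24 over the members and -0.15 over all genes. WT day 1 arrays had the lowest medians, and with every array centred on its median the split was 14 higher and 23 lower, and 52.3% of all calls were then higher. Among the 15 members whose mean lay within 1 log2 unit above the table median, or under it, 10 were lower and 2 higher at day 1. Markers moved as well at day 1, with 7 of 9 B cell, 10 of 17 myeloid and 6 of 6 T cell markers lower, and at day 3 plasma cell markers were higher for 9 of 11. Their part in the Rab counts was not tested. At day 3, 35 members were called, 13 higher and 22 lower, beside 65.3% of all genes (33.4% higher and 31.9% lower). KO cells without DOX had 30 members called between days 0 and 3, 16 higher and 14 lower, beside 62.4% of all genes (36% higher and 26.4% lower). The change over 3 days differed between the genotypes for 11 members, 9 with a more positive change in KO and 2 with a more negative one, beside 25.9% of all genes (16% and 9.95%).

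Rab35 rose most in both genotypes. It directs recycling of endocytosed receptors to the plasma membrane. It read 10.63, 10.71 and 10.63 in WT at day 0, 12.62, 12.60 and 12.62 at day 1, and 12.67, 12.72 and 12.57 at day 3. All stimulated arrays lay above all resting ones. The difference was 1.96 ± 0.13 (SE) at day 1 (adjusted p = 1.2e-12) and 2.00 ± 0.13 at day 3, a 3.99-fold rise (adjusted p = 1.6e-12). In KO cells it went from 10.15, 10.27 and 10.42 at day 0 to 12.39, 12.23 and 12.45 at day 3 with zero DOX, a rise of 2.08 ± 0.13 (adjusted p = 8.7e-13).

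Rab27a and Rab8b rose as well. Rab27a docks secretory granules and lysosome-related organelles at the plasma membrane. It read 8.45, 8.44 and 8.36 in WT at day 0, 9.70, 9.65 and 9.75 at day 1, and 9.57, 9.52 and 9.63 at day 3. The stimulated arrays were all higher, by 1.28 ± 0.12 at day 1 (adjusted p = 1.3e-09) and 1.16 ± 0.12 at day 3 (adjusted p = 1.4e-08), and in KO cells the rise over 3 days was 0.94 ± 0.12 (adjusted p = 4.1e-07). Rab8b, which serves transport to the plasma membrane, peaked at day 1. It read 11.59, 11.60 and 11.59 at day 0, 12.75, 12.71 and 12.73 at day 1, and 12.02, 11.91 and 11.96 at day 3. The groups did not overlap, and the differences from day 0 were 1.14 ± 0.05 at day 1 (adjusted p = 1.3e-16) and 0.38 ± 0.05 at day 3 (adjusted p = 1.4e-07). Rab21, an early endosome Rab linked to integrin traffic, rose by 0.47 ± 0.04 at day 1, and Rab23, a cilium-linked Rab, by 0.38 ± 0.05.

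Rab33b and Rab15 fell and stayed low. Rab33b acts at the Golgi and binds the autophagy factor Atg16l1. It read 10.90, 10.88 and 10.91 in WT at day 0, 9.63, 9.59 and 9.55 at day 1, and 9.43, 9.52 and 9.40 at day 3. No stimulated array came near the resting ones, and it fell by 1.31 ± 0.06 at day 1 and by 1.45 ± 0.06 at day 3 (adjusted p = 7.6e-16). In KO cells it fell by 1.27 ± 0.06 over 3 days (adjusted p = 8.2e-15). Rab15, which slows recycling from early endosomes, read 9.69, 9.49 and 9.70 at day 0, 8.38, 8.32 and 8.37 at day 1, and 8.63, 8.57 and 8.68 at day 3 in WT. The resting arrays were again all higher, and it fell by 1.27 ± 0.07 at day 1 and by 1.00 ± 0.07 at day 3, and by 1.11 ± 0.07 in KO cells (adjusted p = 2.8e-13).

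Rab30 and Rab19 fell at day 1 in WT and then recovered or passed their resting level. Rab30 is a Golgi Rab. It read 11.84, 11.87 and 11.89 at day 0, 9.09, 9.14 and 9.24 at day 1, and 11.41, 11.57 and 11.51 at day 3. It fell by 2.71 ± 0.13 at day 1, the largest difference of any member in the 12 comparisons (adjusted p = 2.5e-15), and was still lower by 0.37 ± 0.13 at day 3 (difference -0.37, adjusted p = 0.016, and 0.059 without WT day 3 replicate 1). Its other tested probe set rose by 1.77 at day 3, so the direction at that time depends on the set. Rab19, whose role is less defined, read 9.35, 9.24 and 9.12 at day 0, 8.41, 8.41 and 8.53 at day 1, and 10.21, 10.53 and 10.32 at day 3. The 3 groups did not overlap, with a fall of 0.79 ± 0.12 at day 1 (adjusted p = 2.6e-06) and a rise of 1.12 ± 0.12 at day 3 (adjusted p = 1.7e-08). In KO cells Rab19 rose by 1.29 ± 0.12 over 3 days (adjusted p = 1.4e-09), from 8.996, 9.20 and 9.18 at day 0 through 9.42, 9.40 and 9.28 at day 1 to 10.30, 10.39 and 10.57 at day 3. All its day 1 arrays stood above the day 0 arrays in KO and below them in WT.

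**Figure D2:**
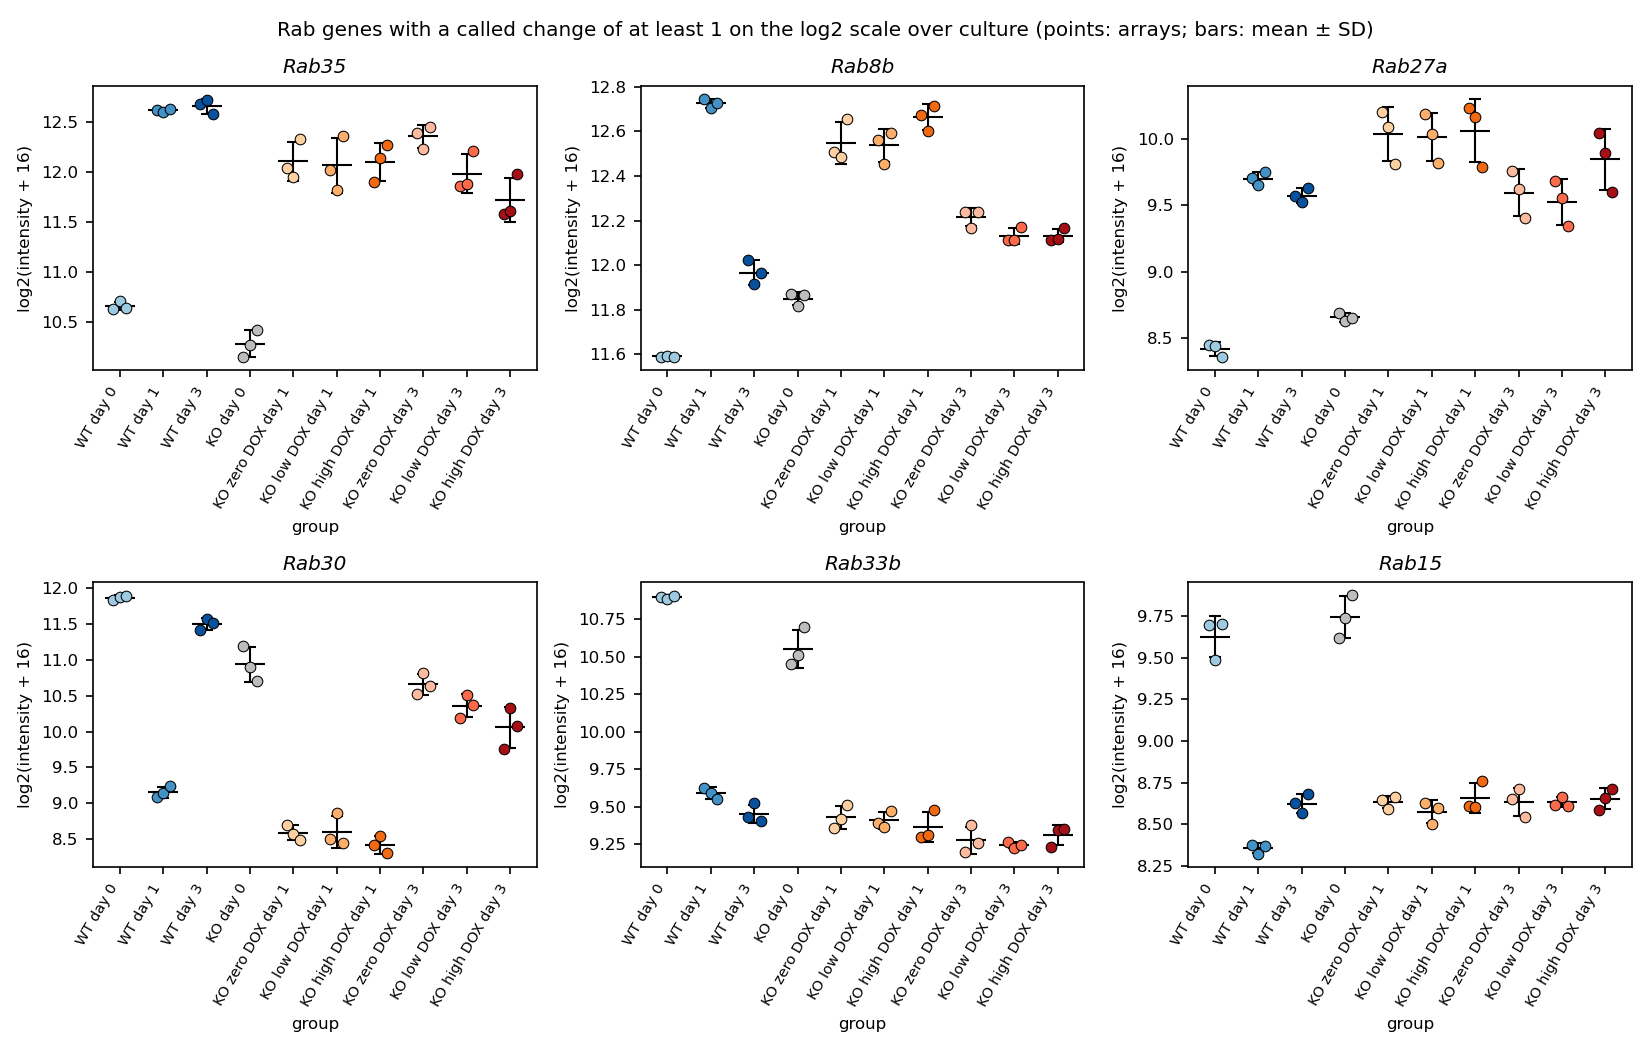
Log2(intensity + 16) of 6 Rab genes in each of the 10 groups, with points for arrays and bars for the mean and SD (n = 3). Rab35, Rab8b and Rab27a sit higher and Rab33b and Rab15 lower in all stimulated groups than at day 0, while Rab30 drops from 11.87 to 9.15 in WT at day 1 and lies between 11.41 and 11.57 at day 3.

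By role, the ER and Golgi members had 1 higher and 7 lower of 10 in WT at day 3, and the recycling endosome members 1 higher and 4 lower of 6. Over all genes 33.4% were higher and 31.9% lower. Of the 18 called members with other tested sets, 7 had a set called in the opposite direction. The lower ER and Golgi members include Rab30, whose other set rose. The ER and Golgi exception was Rab1a, which is needed for ER to Golgi transport and was higher by 0.24 ± 0.07, although its 2 other tested sets both fell (-1.32 and -0.25). Rab6a, which serves traffic at the Golgi, fell by 0.73 ± 0.06 and its 2 other sets fell too. Rab2b and Rab18, of the same route, fell by 0.38 ± 0.05 and 0.32 ± 0.05. Rab18's other set read 0.15, and the mean of both sets was not called (-0.087, adjusted p = 0.48). Rab2a and Rab43 fell by 0.14 ± 0.05 and 0.22 ± 0.07. Among recycling members Rab11b fell by 0.62 ± 0.04 and Rab4b by 0.47 ± 0.06, while Rab11a was not called (0.05, with its other set at -0.85). Rab14 fell by 0.09 ± 0.03, and of its 5 other sets 2 were called lower and 1 higher. In KO cells over 3 days Rab11a was called higher (0.19) and its other set lower (-0.97). Early endosome members with a lower call at day 3 were Rab5a, Rab5b, Rab5c and Rab20. The call of Rab20 was lost without WT day 0 replicate 3 (adjusted p = 0.18) or WT day 3 replicate 3 (0.17), and after centring (0.063). The other tested set of Rab5b was called higher (0.55), so its direction depends on the set. Among secretion Rabs, Rab3d and Rab3b were lower by 0.43 ± 0.11 and 0.26 ± 0.11. Rab29 and Rab9, which serve lysosomes and the route from late endosomes to the Golgi, rose by 0.45 ± 0.06 and 0.38 ± 0.05, while Rab7, the main late endosome Rab, fell by 0.21 ± 0.05 on the chosen set and rose by 0.26 on its other. Rab10 and Rab12 were also called in opposite directions by different sets.

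The Irf4-/- genotype was compared by setting KO cells without DOX against WT cells at each day. At day 0, 17 of 50 members were called, 6 higher and 11 lower, beside 31.5% of all genes (13.1% higher and 18.4% lower). At day 1 there were 30, 21 higher and 9 lower, beside 49.6% (33.9% and 15.7%). At day 3 there were 13, 10 higher and 3 lower, beside 34.9% (19% and 15.8%). The day 1 split follows the scaling: centred arrays gave 13 higher and 18 lower and quantile normalization 18 and 9, while 38.1% of all calls were higher after centring and 60.7% after quantile normalization. Of the 15 dim members 10 were higher and 2 lower in KO at day 1. Without the 2 day 1 arrays that go against their labels, 27 members were called, 20 higher and 7 lower. Within females, where 1 KO array stands against 3 WT arrays and no separate test was run, the called members kept their sign in 16 of 17 cases at day 0, 30 of 30 at day 1 and 13 of 13 at day 3. The exception was Rab8a, lower by 0.31 ± 0.08 over all arrays at day 0 and at 0.018 within females. The same arrays had helped to make these calls, so a kept sign was likely beforehand and is no separate support. No share over all genes is given for it. With sex as a term in the fit 13, 28 and 12 members were called at the 3 days. The KO female was replicate 3 in each of these groups, so sex cannot be told apart from that replicate. With the compared groups alone 5 members were called at day 0, and Rab8a, Rab32 and Rab39 were among those lost.

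Rab30 was lower in KO at all 3 days. At day 0 it read 11.20, 10.90 and 10.71 in KO, at day 1 8.70, 8.57 and 8.49, and at day 3 10.52, 10.82 and 10.63, each array under every WT array of the same day. The difference was -0.93 ± 0.13 at day 0 (adjusted p = 1.1e-05), -0.57 ± 0.13 at day 1 (adjusted p = 0.0011) and -0.84 ± 0.13 at day 3 (adjusted p = 2.1e-05). Its other probe set was called lower at day 3 too, by a difference of -1.85. Within females the 3 differences were -1.16, -0.66 and -0.86. Rab33b was lower at the 3 days as well, by smaller amounts (-0.35 ± 0.06, -0.16 ± 0.06 and -0.17 ± 0.06).

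Rab35 was lower in KO at day 0 (-0.38 ± 0.13, adjusted p = 0.029) and day 1 (-0.51 ± 0.13, adjusted p = 0.0025) and was not called at day 3 (-0.30, 95% interval -0.57 to -0.033, adjusted p = 0.076). At day 1 it read 12.04, 11.95 and 12.33 in KO, all under the WT arrays, and the female array was the highest of the 3. Its day 0 call was lost in 5 of the 6 fits that each leave out 1 of the compared arrays, and with a sex term (-0.18, adjusted p = 0.074). The sex term brought the day 1 difference to -0.31 (adjusted p = 0.0013).

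Rab29 and Rab19 were higher in KO at day 1. Rab29, a lysosome and Golgi Rab that recruits the kinase Lrrk2, was higher by 0.47 ± 0.06 at day 1 (adjusted p = 1.6e-06) and 0.48 ± 0.06 at day 3 (adjusted p = 8.5e-07). Its KO arrays at day 3 lay between 10.72 and 10.79 and the WT arrays between 10.23 and 10.30. Rab19 was higher by 0.91 ± 0.12 at day 1 (adjusted p = 3.1e-06) and differed by 0.07 at day 3 (95% interval -0.18 to 0.32, adjusted p = 0.71). Rab6b and Rab24, the latter linked to autophagy, were higher at day 3 by 0.38 ± 0.09 and 0.32 ± 0.08. Rab9 was lower by a difference of -0.30 ± 0.05 at day 3 and higher by 0.26 ± 0.05 at day 0. Rab39 was lower at day 0 (-0.53 ± 0.11), with a female difference of -0.18.

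Rab20, an early endosome and phagosome Rab, was higher in KO at day 1 by 1.15 ± 0.26 (adjusted p = 0.00081) and at day 3 by 0.93 ± 0.26 (adjusted p = 0.0064). At day 1 it read 8.54, 8.55 and 7.73 in KO and 7.12, 7.23 and 7.01 in WT, and at day 3 8.32, 8.18 and 7.62 against 7.27, 7.26 and 6.80. The groups did not overlap, and replicate 3, the female, was the lowest KO array at both days. Rab20 is a dim member, with 17 of 30 arrays above the table median (7.67 on this scale). All the WT arrays just given lay under that median, so Rab20 passed the filter through groups where it is higher. Within females the differences were 0.61 and 0.51, and with a sex term 0.76 (adjusted p = 0.00024) and 0.54 (0.0068). The sex term stands for KO replicate 3 alone, and its fit treats same-numbered KO arrays as independent although they correlated. Myeloid markers differed too: 13 of 17 were higher in KO at day 1, with sums of 6889 to 9182 against 2684 to 2995, and 10 of 17 at day 3. T cell (5 of 6), NK cell (4 of 6) and platelet (4 of 8) markers were higher at day 1 as well. Over all genes 33.9% were called higher and 15.7% lower in KO at that day, a split that turned under centring. Myeloid sums fell from between 10040 and 18910 at zero DOX to between 2856 and 3950 at high DOX on day 3. Rab20 was not called between those doses, nor between KO and WT at day 0, although KO at day 0 had its highest group mean (8.29). A missing call does not show that Rab20 stayed level there. The part of these markers in the Rab20 result was not tested. Rab32, a lysosome-related organelle Rab, was higher at day 0 by 0.52 ± 0.13, when myeloid sums were 8320 to 27360 in KO and 4382 to 4731 in WT, and its female difference was 0.17. Rab32 is dim too, with 16 arrays above the table median and a WT day 0 mean of 7.41, under it. In such bulk RNA, more cells of a type and more RNA per cell cannot be told apart.

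Among secretion Rabs, 6 of 7 were called higher and 1 lower in KO at day 1 (Rab3a, Rab3b, Rab3d, Rab26, Rab27a and Rab37 against Rab27b), and 0 were called at day 3. Over all genes the day 1 shares were 33.9% higher and 15.7% lower, and that split turned under centring. Rab3a, Rab3b, Rab3d, Rab37 and Rab27b kept their calls after centring, and Rab26 was not followed there. For Rab27a the call was lost after centring (0.19, adjusted p = 0.25) and without the day 1 replicate 2 arrays (0.31, adjusted p = 0.093). At day 3 Rab1a differed by -0.0017 (95% interval -0.14 to 0.14), Rab2a by -0.05 (-0.16 to 0.058) and Rab6a by 0.08 (-0.044 to 0.20). Rab27a differed by 0.02 with a wider interval (-0.24 to 0.28), which leaves room for differences of a size called in other members.

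In KO cells at day 3, Rab transcripts differed in both directions between cultures with DOX and cultures without. No group is labelled as given DOX without the inducible Irf4, so Irf4 and the drug cannot be told apart. With low DOX 13 of 50 members were called, 2 higher and 11 lower, beside 35.8% of all genes (17.6% higher and 18.2% lower). With high DOX 23 were called, 10 higher and 13 lower, beside 48.6% (24.4% and 24.2%). High against low DOX gave 5, 4 higher and 1 lower, beside 12.8% (6.69% and 6.09%), and with the replicate number as a block within genotype 9, 7 higher and 2 lower. With centred arrays that comparison gave 2 (1 each way), and the share of all calls that were higher was 36%. Leaving out single arrays brought the low DOX count to between 8 and 14, lowest without low DOX replicate 1, and the high against low count to between 1 and 5, lowest without high DOX replicate 1. Of the 23 members called between zero and high DOX, 22 had a low DOX mean between the others, Rab13 being the exception. These members were picked for a difference between the outer doses, which makes a mean in between likely. The share over all genes was not computed. At both dose steps 2 members were called higher and 1 lower. The zero DOX arrays are shared by both dose comparisons. Cell type markers moved with the dose: all 9 B cell markers fell and 10 of 11 plasma cell markers rose with high DOX, 10 of 17 myeloid markers fell (sums of 2856 to 3950 at high DOX), and all 6 NK cell markers fell (7341 to 14430 at zero DOX and 1529 to 2825 at high DOX). The part of these markers in the Rab results was not tested.

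**Figure D3:**
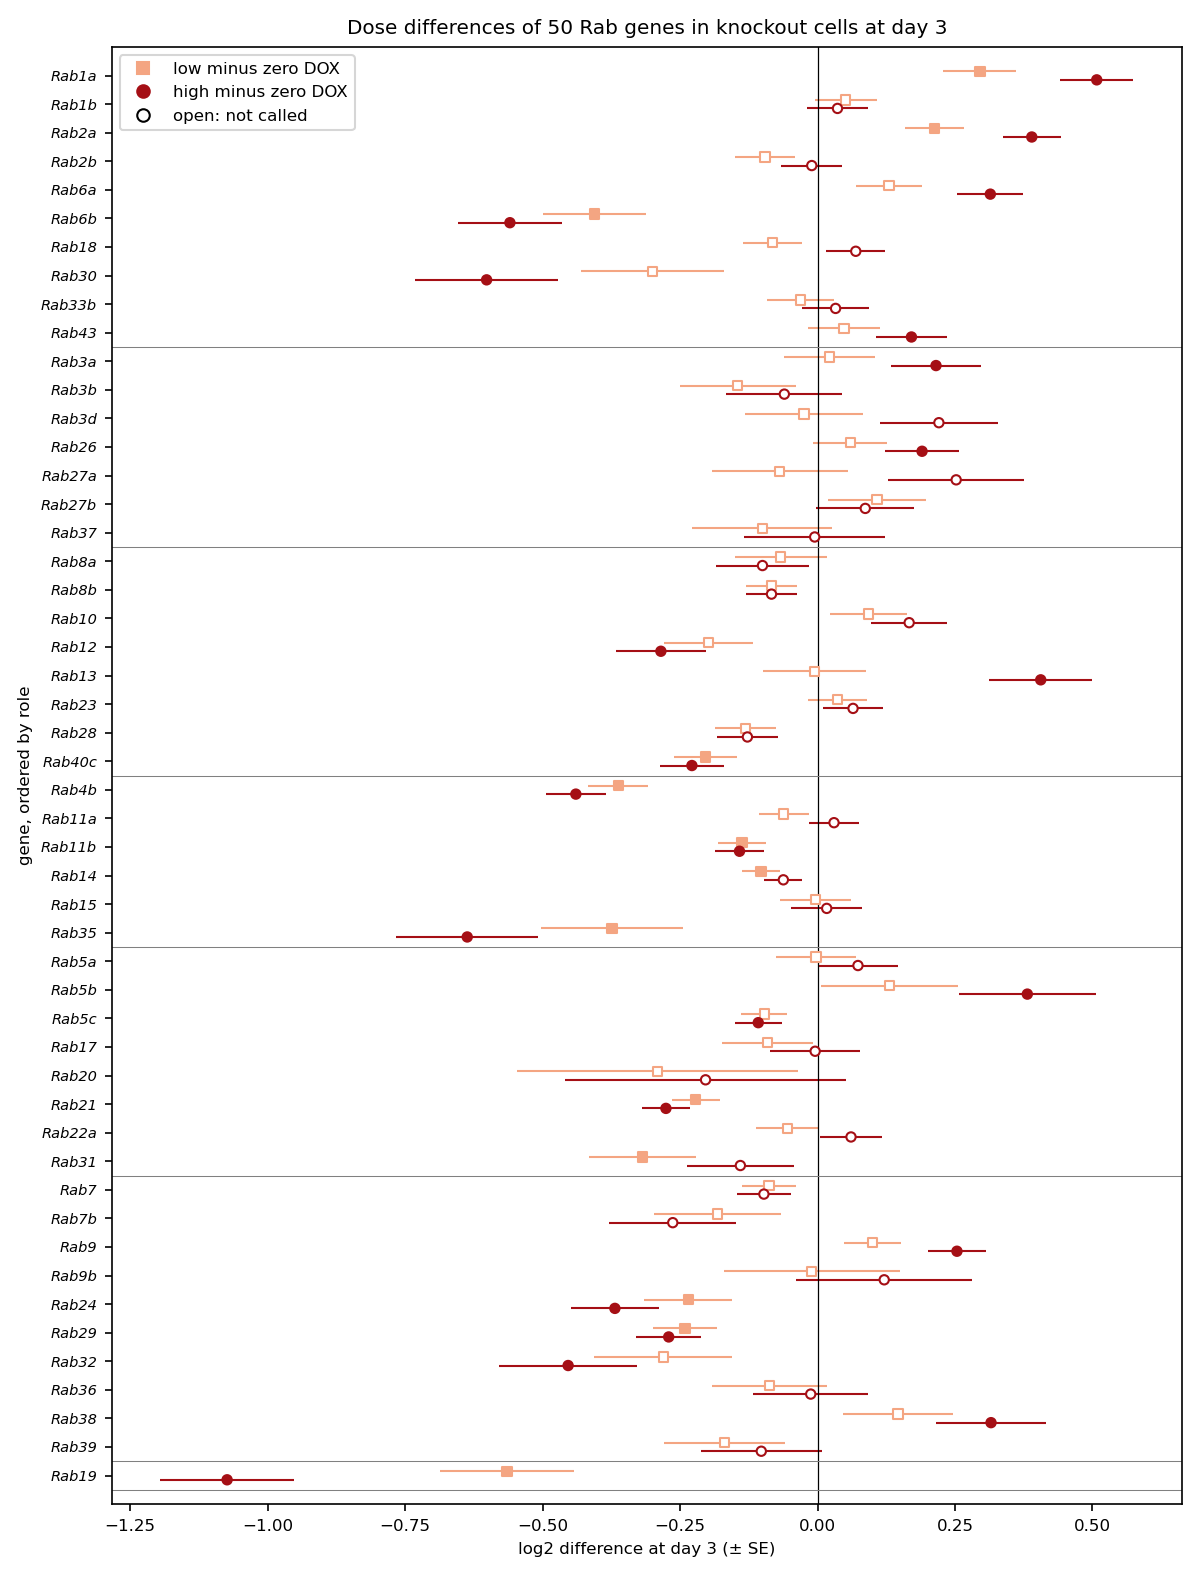
Log2 differences of the 50 Rab genes at day 3 in KO cells, for low minus zero DOX (squares) and high minus zero DOX (circles), with bars for the SE and filled symbols for called differences. Rab19 lies farthest left, at -1.07 for high DOX, and Rab1a farthest right, at 0.51.

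Rab1a, Rab2a and Rab6a, of the ER and Golgi route, rose. Rab1a lay between 12.40 and 12.50 at zero DOX, 12.64 and 12.80 at low DOX, and 12.88 and 13.00 at high DOX. The 3 groups did not overlap, and the differences from zero DOX were 0.30 ± 0.07 (adjusted p = 0.0013) and 0.51 ± 0.07 (adjusted p = 8.9e-07), the second a 1.42-fold rise. Rab2a, which acts between the ER and the Golgi, lay between 11.37 and 11.47, 11.57 and 11.68, and 11.74 and 11.87 in the same order. It was higher by 0.21 ± 0.05 at low DOX (adjusted p = 0.003) and by 0.39 ± 0.05 at high DOX (adjusted p = 1.6e-06). Rab1a and Rab2a were the 2 members called higher at both dose steps. Of Rab1a's 2 other sets 1 was called higher with high DOX against zero, and of Rab2a's 4 others 1. At each single dose step 1 of Rab1a's other sets was called higher and 0 of Rab2a's, so for Rab2a the 2 steps rest on the chosen set. Rab6a was called at high DOX (0.31 ± 0.06, adjusted p = 0.00012), and so were its 2 other sets. In all, 4 of 10 ER and Golgi members rose with high DOX, the fourth being Rab43 (0.17 ± 0.07, with its other set lower), and 2 fell, Rab30 and Rab6b, with a median of 0.053 over the 10. Over all genes 24.4% rose and 24.2% fell.

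Against WT at day 3, high DOX cells had 20 members called, 12 higher and 8 lower, beside 41.1% of all genes (22.1% and 19%). Rab1a was higher than WT by 0.51 ± 0.07 (adjusted p = 1.5e-06), Rab2a by 0.34 ± 0.05 and Rab6a by 0.39 ± 0.06. Of the other sets 1 of 2 was called higher for Rab1a, 0 of 4 for Rab2a and 2 of 2 for Rab6a. Rab43 and Rab18 were higher by 0.41 ± 0.07 and 0.19 ± 0.05, and Rab43 had been called higher at zero DOX too (0.24). Rab22a, an early endosome Rab, was higher by 0.19 ± 0.06, with 1 of its 3 other sets called lower. Within females the differences of Rab1a, Rab2a and Rab6a were 0.44, 0.28 and 0.36. Plasma cell markers were called higher than WT in 9 of 11 cases and B cell markers lower in 8 of 9. Rab20 was higher than WT by 0.73 ± 0.26 (adjusted p = 0.025) and by 0.25 within females, and this call was lost without high DOX replicate 1 (adjusted p = 0.10), high DOX replicate 2 (0.12) or WT replicate 3 (0.12), and with a sex term (0.08).

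Rab19 was the only member called lower at both dose steps, in a fit that did not pair the replicates. At day 3 it read 10.30, 10.39 and 10.57 at zero DOX, 9.61, 9.86 and 10.10 at low DOX, and 9.10, 9.39 and 9.55 at high DOX. No 2 of these groups overlapped. It was lower by 0.56 at low DOX (difference -0.56 ± 0.12, adjusted p = 0.00081) and the difference at high DOX was -1.07 ± 0.12 (adjusted p = 9.2e-08), a 2.1-fold fall. The second step, -0.51 ± 0.12 (adjusted p = 0.0058), was lost without high DOX replicate 1 (adjusted p = 0.068) or low DOX replicate 3 (0.061). Against WT the high DOX difference was -1.01 ± 0.12 (adjusted p = 4.3e-07).

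Rab35 and Rab30 fell too, and within each replicate number both were lower at each dose step. At day 3 Rab35 read 12.39, 12.23 and 12.45 at zero DOX, 11.86, 11.87 and 12.21 at low DOX, and 11.57, 11.61 and 11.98 at high DOX, with all low and high DOX arrays under all zero DOX arrays, and low and high DOX overlapping. The differences were -0.37 ± 0.13 at low DOX (adjusted p = 0.027, lost in 4 of the 6 fits that leave out 1 of the compared arrays) and -0.64 ± 0.13 at high DOX (adjusted p = 0.00024). High DOX cells stood -0.94 ± 0.13 from WT (adjusted p = 2.9e-06), with a female difference of -0.68. Rab30 read 10.52, 10.82 and 10.63 at zero DOX, 10.19, 10.51 and 10.37 at low DOX, and 9.76, 10.33 and 10.08 at high DOX. High DOX arrays were all under zero DOX arrays, by a difference of -0.60 ± 0.13 (adjusted p = 0.00046), and low DOX overlapped with high DOX. Its other set read -0.26 there and was not called. Its difference from WT was -1.44 ± 0.13 at high DOX (adjusted p = 6.4e-09), larger than the -0.84 of zero DOX cells, and high DOX arrays lay farther from WT than zero DOX arrays did.

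Among the 24 endosome and lysosome members 8 fell and 3 rose with high DOX, beside 24.2% and 24.4% of all genes. Of the 6 recycling members 3 fell with high DOX and 0 rose: Rab4b (-0.44 ± 0.06, adjusted p = 4.3e-07), Rab11b (-0.14 ± 0.04) and Rab35. Of 8 early endosome members Rab21 (-0.28 ± 0.04) and Rab5c (-0.11 ± 0.04) fell, and Rab5b was higher on the chosen set (0.38) and lower on its other (-0.35). Of 10 late endosome and lysosome members Rab24 (-0.37 ± 0.08), Rab29 (-0.27 ± 0.06) and Rab32 (-0.45 ± 0.13) fell, while Rab9 (0.25 ± 0.05) and Rab38 (0.32 ± 0.10) rose. The rises of Rab5b and Rab38 were lost without zero DOX replicate 1 (adjusted p = 0.09) and zero DOX replicate 2 (0.058) in turn. Rab29 lay between 10.44 and 10.503 at high DOX, under all zero DOX arrays and above all WT arrays. Rab31 fell at low DOX (-0.32 ± 0.10, lost without zero DOX replicate 1 or low DOX replicate 2) and was not called at high DOX (-0.14).

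Among 7 secretion members 2 rose and 0 fell with high DOX, beside 24.4% and 24.2% of all genes. Rab26, a Rab of zymogen granules, rose by 0.19 ± 0.07 with high DOX and Rab3a, an exocytosis Rab, by 0.22 ± 0.08, with overlapping arrays in both cases and Rab3a's other set at -0.07. Rab3d, of the same kind, differed by 0.22 (adjusted p = 0.092) and Rab27a by 0.25 (adjusted p = 0.098). Rab13, known from tight junction traffic, was called at the second step and not at the first, as was Rab6a. It lay between 7.92 and 8.29 at zero DOX, 8.04 and 8.14 at low DOX, and 8.36 and 8.59 at high DOX, a difference of 0.41 ± 0.09 against zero DOX (adjusted p = 0.00089) and 0.41 ± 0.09 against low DOX (adjusted p = 0.0042). Rab12 and Rab40c fell by 0.28 ± 0.08 and 0.23 ± 0.06. The members Rab8a, Rab10, Rab17, Rab22a, Rab23, Rab28, Rab36, Rab37, Rab7b, Rab9b and Rab39 were not called at either dose against zero DOX.

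**Figure D4:**
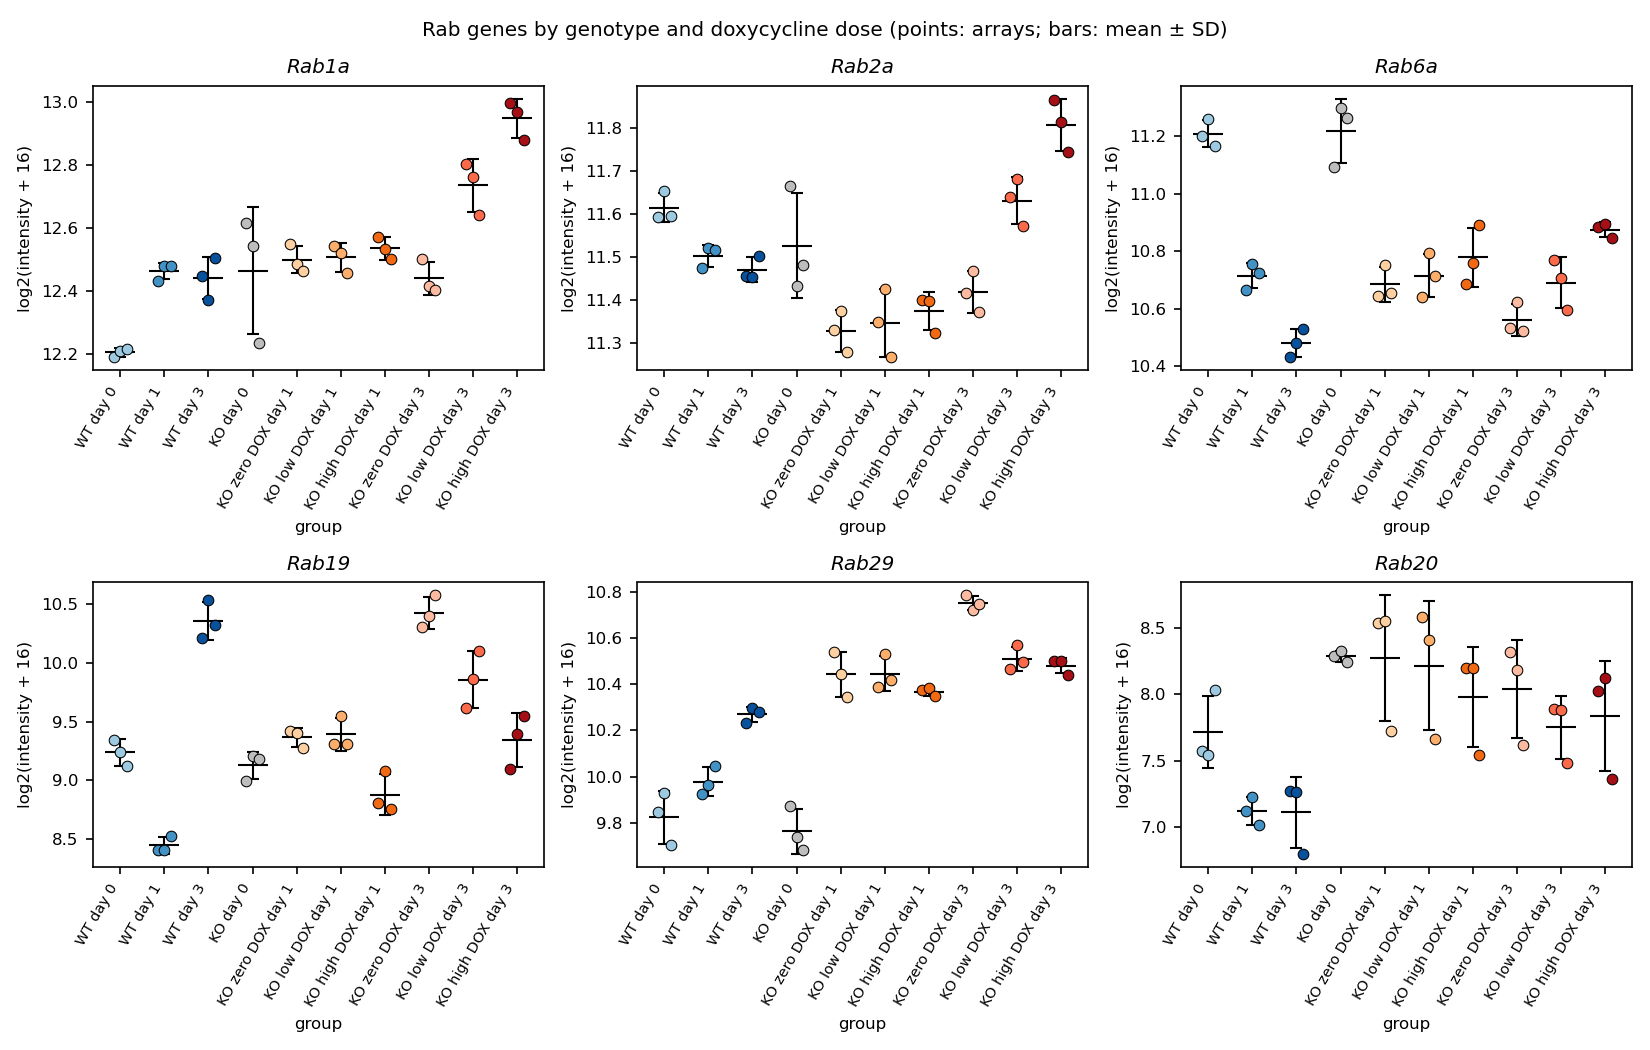
Log2(intensity + 16) of 6 Rab genes in each of the 10 groups, with points for arrays and bars for the mean and SD (n = 3). At day 3 Rab1a, Rab2a and Rab6a climb and Rab19 descends from zero to high DOX, Rab29 lies above WT at every dose, and in Rab20 the third KO array is the lowest of its group at each time and dose.

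At day 1 high DOX moved 2 members against zero DOX, beside 2.75% of all genes (1 higher beside 1.26%, and 1 lower beside 1.49%), and 5 had an unadjusted p under 0.05. Rab43, a Golgi Rab, was higher by 0.37 ± 0.07 (adjusted p = 0.0023), from 9.44, 9.65 and 9.60 to 9.87, 9.88 and 10.04. Its other tested set was not called in this comparison. Rab19 was lower, at 8.80, 9.08 and 8.76 against 9.42, 9.40 and 9.28 (difference -0.48 ± 0.12, adjusted p = 0.03). Neither gene's groups overlapped. Without the 2 day 1 arrays that go against their labels Rab43 was called and Rab19 was not (-0.47, adjusted p = 0.094). Leaving out single arrays lost the Rab19 call in 4 of 6 fits. A fit on the compared groups alone called 0 members, with adjusted p = 0.12 for Rab43 and 0.10 for Rab19.

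The bases before the annotated start are shown for a few members that fell or rose with the dose, to show what stands next to these genes. They were picked by hand from the 23 called with high DOX and do not stand for the others. The promoters shown, of GRCm38.p6, as RefSeq annotates it, run 5′ to 3′ on the gene's strand, each the 250 bases that end just before the start, with motif matches in capitals. They are Rab19 (chr6:39381103-39381352, plus strand) and Rab35 (chr5:115631737-115631986, plus strand), which fell, and Rab1a (chr11:20201162-20201411, plus strand) and Rab6a (chr7:100607336-100607585, plus strand), which rose.
Rab19: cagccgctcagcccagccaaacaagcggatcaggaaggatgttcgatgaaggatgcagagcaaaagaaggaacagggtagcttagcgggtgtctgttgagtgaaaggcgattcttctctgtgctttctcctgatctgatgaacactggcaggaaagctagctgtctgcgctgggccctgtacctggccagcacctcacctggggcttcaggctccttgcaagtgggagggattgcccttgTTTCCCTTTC
Rab35: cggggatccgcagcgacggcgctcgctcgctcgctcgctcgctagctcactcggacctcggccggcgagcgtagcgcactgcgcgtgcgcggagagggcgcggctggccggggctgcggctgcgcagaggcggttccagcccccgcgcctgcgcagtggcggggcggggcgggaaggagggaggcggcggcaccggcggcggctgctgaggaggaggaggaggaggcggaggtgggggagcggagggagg
Rab1a: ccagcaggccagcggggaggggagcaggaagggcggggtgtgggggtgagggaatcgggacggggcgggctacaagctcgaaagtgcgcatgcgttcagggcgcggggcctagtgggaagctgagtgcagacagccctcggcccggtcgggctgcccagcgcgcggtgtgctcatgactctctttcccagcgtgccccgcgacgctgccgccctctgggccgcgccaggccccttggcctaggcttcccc
Rab6a: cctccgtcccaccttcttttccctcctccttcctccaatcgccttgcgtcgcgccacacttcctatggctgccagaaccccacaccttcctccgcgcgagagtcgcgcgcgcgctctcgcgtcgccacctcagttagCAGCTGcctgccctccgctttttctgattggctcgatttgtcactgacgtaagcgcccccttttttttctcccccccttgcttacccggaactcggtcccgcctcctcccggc
Capitals in Rab19 mark a match, on the opposite strand (GAAAGGGAAA), to GAAA, any 2 bases and GAAA, the repeated element bound by IRF factors. It spans bases 10 to 1 before the start. Capitals in Rab6a mark CAGCTG, an E-box of the kind bound by the plasma cell factor Bhlha15, at bases 113 to 108 before the start. Rab35 and Rab1a held no match to the motifs searched. A match is a description of letters, not a shown binding site.

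The search covered both strands of the same 250 bases in 32851 promoters. The IRF element (GAAA, any 2 bases, GAAA) was in 2.98% of them and, of the 48 Rab genes with an entry, in Rab19. The composite ETS and IRF element (GGAA, any 2 bases, GAAA) was in 2.3% and in Rab11b. It cannot start at the same base as the first motif on the same strand. TGACGTG, a core shared by Xbp1 and Atf6, was in 1.65% and in 0 Rab genes. CAGCTG, which overlaps none of the others in its letters, was in 13% and in 9 Rab genes (Rab2b, Rab3a, Rab3c, Rab6a, Rab6b, Rab15, Rab17, Rab27a and Rab39). The percentages count single promoters, whereas each Rab gene counts once and some, such as Rab15 and Rab43, have several entries. The promoters also differ in composition: Rab19 holds 6 CpG pairs, which equals the median of all promoters, whereas Rab35 holds 39, Rab6a 24 and Rab1a 23, and the median of the Rab promoters was 15. The names without an entry were Rab2a, Rab4a, Rab7b, Rab18, Rab26, Rab27b, Rab30, Rab36, Rab37, Rab38 and Rab44.

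Regulators of the family were taken from lists of GEFs, GAPs, prenylation and recycling factors, and effectors. The values of these regulators come from 1 probe set per gene. They were not followed under the alternative fits, within females or on other probe sets. In KO against WT at day 3, 15 of 44 GEFs were higher and 6 lower, 12 of 34 GAPs higher and 5 lower, 0 of 6 prenylation and recycling factors higher and 3 lower, and 13 of 41 effectors higher and 7 lower, beside 19% of all genes higher and 15.8% lower. Dennd5b, a DENN-domain GEF, was lower in KO by a difference of -1.49 ± 0.19 (adjusted p = 1.1e-06), and Tbc1d4, a GAP known from glucose transporter traffic, by -1.70 ± 0.24 (adjusted p = 6.7e-06). Tbc1d4 was lower at day 0 too (-1.03) and was higher in KO at day 1 (0.99, adjusted p = 0.0018). At day 3 it lay between 7.97 and 8.10 in zero DOX cells and 9.55 and 9.80 in WT. The escort proteins Chml and Chm were lower by -0.63 ± 0.07 and -0.35 ± 0.08, and the transferase subunit Rabggta by -0.20 ± 0.06. High DOX at day 3 gave no call against zero DOX for Chml (-0.047), Chm (0.17) or Tbc1d4 (0.28). Chml and Tbc1d4 were still called lower than WT there (-0.67 and -1.41), and Chm was not called (-0.18). Higher in KO were Inpp5b (1.14 ± 0.12), an inositol phosphatase that binds Rab proteins, and Lrrk2 (0.97 ± 0.19), a kinase that phosphorylates Rab proteins. Dennd5b, Rabggta, Inpp5b and Lrrk2 were called with high DOX, each in the direction opposite to its KO difference.

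With high DOX at day 3, 22 of 44 GEFs fell and 5 rose, 11 of 34 GAPs fell and 8 rose, 2 of 6 prenylation and recycling factors rose and 1 fell, and 14 of 41 effectors fell and 8 rose. All genes tested had 24.4% higher and 24.2% lower. The median over the GEFs was -0.22, beside 0.0039 over all genes. Among GEFs, Dennd1c, which acts on Rab35, fell by a difference of -1.15 ± 0.11 (adjusted p = 1.1e-08) and Dennd2a by -0.97 ± 0.13, while Dennd5b rose by 0.91 ± 0.19 and Ric1, a subunit of a GEF for Rab6, by 0.65 ± 0.10.

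Among GAPs, Evi5 rose by 1.48 ± 0.14 (adjusted p = 8.6e-09). It lay between 8.22 and 8.70 at zero DOX and 9.83 and 10.17 at high DOX. Tbc1d5, Tbc1d10c and Tbc1d1 fell (-0.76 ± 0.07, -0.72 ± 0.11 and -0.65 ± 0.13). The transferase subunits Rabggta and Rabggtb rose by 0.40 ± 0.06 and 0.29 ± 0.05, and Gdi2, which extracts inactive Rab proteins from membranes, fell by 0.079 ± 0.032.

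Among effectors, Lrrk2 fell most. It read 11.92, 12.15 and 12.15 at zero DOX, 10.70, 11.21 and 11.35 at low DOX, and 9.40, 10.02 and 10.11 at high DOX, a difference of -2.24 ± 0.19 between zero and high (adjusted p = 1.1e-09) with no overlap. Rab29, which recruits this kinase, changed in the same direction in these groups, by -0.27. Mical1 and Unc13d, the latter a partner of Rab27a in granule release, fell by -1.02 ± 0.09 and -0.71 ± 0.08. Uso1, the tether that Rab1 recruits to transport vesicles, rose by 0.62 ± 0.05 (adjusted p = 9.7e-11), from between 10.83 and 10.93 at zero DOX to between 11.46 and 11.54 at high DOX, beside the rise of Rab1a.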

How the data were processed

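Mouse B cell RNA was hybridised to Affymetrix mouse expression arrays, 1 array per replicate, 30 in all. Each deposited value is the intensity of a probe set on a linear scale, normalized by the authors in D-Chip from perfect-match probes alone, as the series text states. MAS5 appears in the submitters' processing notes without a stated role. Of 45101 probe sets, 34945 had 1 gene symbol in GEO's platform annotation, updated through Entrez identifiers to RefSeq names (GRCm38.p6), and all 132 Rab sets matched. A set was tested if at least 3 arrays exceeded the table median (188.2), and each gene was represented by its tested set of highest mean.

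Analysis used log2(deposited intensity + 16). limma 3.58.1 under R 4.3.3 fitted 1 mean per group to all 30 arrays (20 residual degrees of freedom, eBayes), with Benjamini-Hochberg adjustment over 12183 genes in each of 12 comparisons. Fold changes are on the log2(intensity + 16) scale and understate changes of dim sets. Exact permutation of 3 against 3 arrays cannot go below p = 0.1. The script was tested on simulated data. The number of arrays limits the precision. Alternatives were other constants, filters, scalings, probe set rules, array weights, a variance trend, the compared groups alone, a replicate block, a sex term and leaving out each array.

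Deviations of same-numbered KO arrays correlated between 0.34 and 0.8 in every comparison within KO, so the replicate numbers pair KO arrays; in WT and between genotypes they do not (from -0.15 to 0.23). The pairing comes from the data, since the labels do not name shared mice. Of each group, a pair of replicates was handled in parallel and the other at another time, per the series text, without saying which.

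Every member is named at least once; array values are given for members called with a log2 difference of at least 1, and up to 4 regulators per list for the largest called differences in KO against WT and in high against zero DOX at day 3. The members and lists were chosen with earlier results of these data known.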

Additional observations from a re-analysis of the deposited data

Results flagged for a closer look

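The change from day 0 to day 3 differed between KO cells without DOX and WT cells for 11 of the 50 Rab genes (limma's interaction term, adjusted p under 0.05), beside 25.9% of all genes tested. The interaction is the KO change minus the WT change. In 9 genes it was positive. Rab39 rose by 0.62 in KO and changed by 0.011 in WT (interaction 0.61, adjusted p = 0.0055), and its lowest group mean was that of KO at day 0. Rab29 rose by 0.99 in KO and 0.45 in WT (interaction 0.54, adjusted p = 4.6e-05). Rab6b and Rab40c rose by 0.33 and 0.17 in KO and Rab43, not called there, stood at 0.12. In WT the 3 stood at -0.13, -0.26 and -0.22 (interactions 0.46, 0.42 and 0.34). Rab8a had an interaction of 0.38 (adjusted p = 0.02), which was lost without KO day 0 replicate 2 (0.25, adjusted p = 0.067), KO day 0 replicate 1 (0.35, adjusted p = 0.052) or WT day 0 replicate 2 (0.34, adjusted p = 0.06). Rab5c, Rab21 and Rab14 had interactions of 0.28, 0.24 and 0.16. In Rab9 the term was negative: it rose by 0.38 in WT and fell by 0.18 in KO (interaction -0.56, adjusted p = 9e-06). Rab1a rose by 0.24 in WT and changed by -0.025 in KO (interaction -0.26, adjusted p = 0.043). The KO groups held 2 male mice and 1 female and the WT groups females only, and summed myeloid markers in KO lay between 8320 and 27360 at day 0 and between 10040 and 18910 at day 3. Their part in these differences was not tested.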

How the results depend on the processing

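Of 146 gene values followed under 2869 fits, 2792 kept direction and call, 73 lost the call and 4 reversed; 118 of the values never changed their call. All 4 reversals came with the mean of all tested sets of a gene in place of the brightest: Rab10 0.069, Rab30 0.70 and Rab5b 0.0077 for WT day 3 against day 0, and Rab5b 0.12 for KO day 3 against day 0. Counts of called Rab genes moved by over 1.5 times in these cases. With the compared groups alone, KO against WT at day 0 fell from 17 to 5, high against zero DOX at day 1 from 2 to 0, high against low DOX at day 3 from 5 to 1, and the interaction from 11 to 7. The filter at the 75th percentile gave 16 in place of 30 for KO against WT at day 1. High against low DOX at day 3 gave 2 with centred arrays, 16 with array weights, 8 with a sex term and 9 with the replicate block within genotype, an alternative added after seeing the data. The plain replicate block gave 7 there and moved no count by over 1.5 times. Without the 2 day 1 arrays that go against their labels, high against zero DOX at day 1 gave 1. Leaving out each array gave 1 to 2 in that comparison, 8 to 14 for low against zero DOX at day 3 and 1 to 5 for high against low DOX at day 3. The cause was not tested beyond the fewer arrays or genes in these fits. Dim members, within 1 log2 unit of the table median, are limited by background signal.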

Other observations

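The low DOX cultures of day 1 entered no comparison, since 1 of their 3 arrays goes against its label. Rab19 read 9.31, 9.55 and 9.31 there, Rab35 12.02, 11.82 and 12.36, Rab30 8.50, 8.86 and 8.45, and Rab1a 12.54, 12.52 and 12.46. Rab43 read 9.46, 9.62 and 9.65, under all 3 high DOX arrays of the same day.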
